A study of Mus musculus with 6 samples.

Results

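The pore-forming α1 subunits of the voltage-gated calcium channels were followed across the cell classes and libraries of a single-nucleus RNA sequencing experiment on the prelimbic cortex (PL), the part of the medial prefrontal cortex where the study looked for traces of social dominance. The genes were chosen by symbol: Cacna1a, Cacna1b, Cacna1c, Cacna1d, Cacna1e, Cacna1g, Cacna1h and Cacna1i, 8 of the 32285 genes in the count matrices, each found once. Together they held 703714 UMIs (transcript molecules counted once) in 42595 nuclei. The experiment had 6 libraries, each made from pooled male C57BL/6 mice that were not brothers. Run males were raised by dams with a running wheel in the cage after birth and Sed males by sedentary dams, and neither had a wheel of their own. From weaning at P21, the age that the labels give for the mice although the study describes adults, males were kept in groups (GH) or in social isolation (SI). Cohort 1 held a RunGH and a SedGH library from males that had been through a tube test of dominance. The study took these males from the top and the bottom of the rank in their own groups, so that rank and maternal environment may not be separable in the cohort 1 pair. Cohort 2 held RunGH, SedGH, RunSI and SedSI libraries from males without such testing. Because each group of a cohort was 1 pool, differences between animals of a pool were not measured, and the cohort and the behavioural testing cannot be told apart.

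A voltage-gated calcium channel opens when the membrane depolarizes and lets calcium into the cell, where calcium triggers transmitter release, opens calcium-activated potassium channels and reaches the nucleus as a signal for gene expression. The α1 subunit forms the pore and senses voltage, and auxiliary β and α2δ subunits bring it to the membrane. Cav1 channels (Cacna1c and Cacna1d here) carry L-type current and are found on cell bodies and dendrites. Cav2 channels carry P/Q-type (Cacna1a), N-type (Cacna1b) and R-type (Cacna1e) current, and the P/Q and N types drive release at presynaptic terminals. Cav3 channels (Cacna1g, Cacna1h and Cacna1i) carry T-type current, which opens near rest and favours burst firing.

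All 8 members are protein-coding genes on autosomes, given here on mm10 by the GENCODE annotation. The longest gene body was that of Cacna1c, at chr6:118587240-119196418 on the minus strand, 609 kb. Those of Cacna1e at chr1:154390731-154884501 (minus), Cacna1d at chr14:30039939-30491455 (minus) and Cacna1a at chr8:84388440-84640246 (plus) followed, with 494, 452 and 252 kb. Cacna1b at chr2:24603887-24763152 (minus) and Cacna1i at chr15:80287238-80398279 (plus) spanned 159 and 111 kb. The shortest were Cacna1g at chr11:94408391-94474198 and Cacna1h at chr17:25374285-25433783, both on the minus strand, with 65.8 and 59.5 kb. Reads within introns were counted, so a long gene collects more UMIs, and members were compared with each other only per kb. Counted genes overlapped Cacna1a (Gm16183), Cacna1c (Dcp1b), Cacna1d (Chdh and Dcp1a) and Cacna1h (Tpsg1), and reads from the shared stretches could be split between the genes.

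RefSeq promoter sequences (GRCm38.p6) were found for 5 of the 8 members. Those of Cacna1b and Cacna1e are shown because these Cav2 genes differed in opposite directions between VIP interneurons and pyramidal neurons, as described below, Cacna1b being higher and Cacna1e lower in VIP interneurons. The 250 bases before the start site are printed on the gene's strand, with capitals for the GC box GGGCGG or its reverse complement CCGCCC. The window of Cacna1b lies at chr2:24763153-24763402, bordering the annotated start of the gene. That of Cacna1e lies at chr1:154725921-154726170, inside the gene body. It belongs to an internal start site, downstream of the annotated start of Cacna1e at chr1:154884501. No window at that annotated start was among the sequences, so the pair sets an internal start against a start at the end of the gene.
Cacna1b: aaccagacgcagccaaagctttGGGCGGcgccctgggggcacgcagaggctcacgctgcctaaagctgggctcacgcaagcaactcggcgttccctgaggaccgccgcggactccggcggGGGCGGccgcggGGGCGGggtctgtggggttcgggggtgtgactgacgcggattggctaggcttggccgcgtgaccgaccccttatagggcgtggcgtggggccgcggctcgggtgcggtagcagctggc
Cacna1e: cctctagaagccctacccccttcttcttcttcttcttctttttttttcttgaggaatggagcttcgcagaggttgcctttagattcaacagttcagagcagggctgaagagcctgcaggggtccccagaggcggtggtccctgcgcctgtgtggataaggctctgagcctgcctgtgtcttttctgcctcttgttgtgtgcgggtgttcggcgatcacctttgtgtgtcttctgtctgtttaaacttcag
Over 300 bases, with the 50 after the start included, the Cacna1b promoter held 3 GC boxes, 35 CpG and 72.3% G or C. The window at the internal start of Cacna1e held 0 GC boxes, 11 CpG and 55.3% G or C. A GC box was present in 35.7% of the 32851 promoters of this length, whose median was 7 CpG. These are counts of letters in a window and not measured binding.

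Depth differed between libraries. The nuclei kept held 11217933 to 52301726 UMIs per library, with medians of 5586, 6250, 3396.5, 1637, 4033 and 3600 UMIs in RunGH cohort 1, SedGH cohort 1, RunGH cohort 2, SedGH cohort 2, RunSI and SedSI; all lists of 6 values below are in this order. SedGH of cohort 2 was the shallowest. Members took between 0.291% (RunGH cohort 2) and 0.455% (SedGH cohort 1) of the UMIs. Any pair of libraries shared 5 to 22 cell barcodes, at most 0.428% of the smaller library. Cell classes were rebuilt by clustering without the members or their partner genes and named from marker genes, so every class name means "like" that type. Of the nuclei, 38641 fell into 15 classes large enough to rank, among them 7 layer classes of pyramidal neurons (32390 nuclei together) and 4 interneuron classes. The pooled class called pyramidal neurons (33690 nuclei) also held 1300 nuclei from pyramidal clusters that matched no layer list. The defining markers were highest in their own class for PV interneurons (Pvalb 46.8 CPM, the gene's UMIs scaled by the total UMIs of the class in a library), SST (Sst 92.6), VIP (Vip 163) and NPY interneurons (Ndnf 189) and astrocytes (Slc1a3 2486). Of their whole lists, 5 of 5 PV, 6 of 6 SST, 6 of 7 VIP, 7 of 8 NPY and 6 of 8 astrocyte markers were highest there. The layer classes were marked less sharply: 20 of 37 layer markers were highest in the class named from them, and 30 of 37 when the 7 layer classes alone were compared. By class, these counts were 2 and 4 of 5 markers in layer 2/3 neurons and 2 and 5 of 5 in mid-layer neurons. In layer 6 corticothalamic neurons they were 4 and 5 of 6. The neurons with Chst8 and the deep neurons with Oprk1 and Rxfp1 each had 2 and 4 of 5. Both counts were 2 of 5 in layer 5 intratelencephalic-like neurons and 6 of 6 in near-projecting neurons. Rorb, a mid-layer marker, stood at 311 CPM in mid-layer neurons and at 1320 CPM in astrocytes, and Etv1 at 144 CPM in layer 5 intratelencephalic-like and 427 CPM in near-projecting neurons. The 6 pyramidal markers summed to 1065 to 1464 CPM in the layer classes and to 169.9 to 218 CPM in the interneuron classes, with none at 0. Astrocytes held 295 CPM of them. The 6 inhibitory markers summed to 4337 to 13055 CPM in the interneuron classes. In layer 5 near-projecting neurons they summed to 1167 CPM, against 97.7 to 128.5 CPM in the other layer classes. The lowest of them stood at 2.93 CPM in near-projecting neurons. Where this RNA came from was not tested. Background droplets, set apart by their UMIs alone, also held member RNA. The minimum for nuclei was 2451, 3156, 1272, 620, 1587 and 1369 UMIs in the 6 libraries. Background droplets had at least 30 UMIs and under 0.6 times this minimum. Whether all of them lacked nuclei was not tested. The part of their RNA in low values was not tested beyond subtracting the profile of those droplets.

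In pyramidal neurons the P/Q-type subunit Cacna1a was at 1036, 1202, 847, 931, 820 and 853 CPM, a mean of 948 ± 147 (SD, n = 6 for all means over libraries). The R-type subunit Cacna1e was at 910, 1034, 728, 811, 805 and 704 CPM (832 ± 123). For both, the 2 libraries of cohort 1 lay above the 4 of cohort 2. The N-type subunit Cacna1b followed the same split, with 359, 378, 203, 231, 234 and 225 CPM. Of the L-type subunits, Cacna1c was at 1177, 1249, 764, 788, 789 and 697 CPM (911 ± 237), and Cacna1d at 564, 677, 431, 479, 491 and 471 CPM (519 ± 88.7). In both, cohort 1 was again above cohort 2. The T-type subunits were at 64.5, 91.0, 37.2, 42.3, 40.2 and 44.2 CPM (Cacna1g), 34.8, 53.8, 18.6, 23.8, 22.7 and 22.4 CPM (Cacna1h) and 84.5, 100.1, 42.6, 45.8, 40.5 and 46.3 CPM (Cacna1i). SedGH of cohort 1 was the highest library for all 8 members. The share of all genes with the same order of libraries was not counted. In the cohort test below, 18.0% of 17929 genes were lower in GH of cohort 2 than of cohort 1. Of genes at least 100 kb long a larger share was, as given there. Per kb of gene body, the mean levels in pyramidal neurons were 3.77 CPM for Cacna1a, 1.70 for Cacna1b, 1.68 for Cacna1e, 1.49 for Cacna1c, 1.15 for Cacna1d, 0.808 for Cacna1g, 0.540 for Cacna1i and 0.493 for Cacna1h. By this measure Cacna1a ranked highest in 14 of the 15 classes, the exception being VIP interneurons, where Cacna1b did. Per kb of exon, Cacna1d ranked highest in astrocytes and microglia and Cacna1b in VIP interneurons. In pyramidal neurons the order per kb of exon was Cacna1a, Cacna1c, Cacna1d, Cacna1e, Cacna1b, Cacna1i, Cacna1g and Cacna1h. Places below the first thus depended on the length used.

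**Figure D1:**
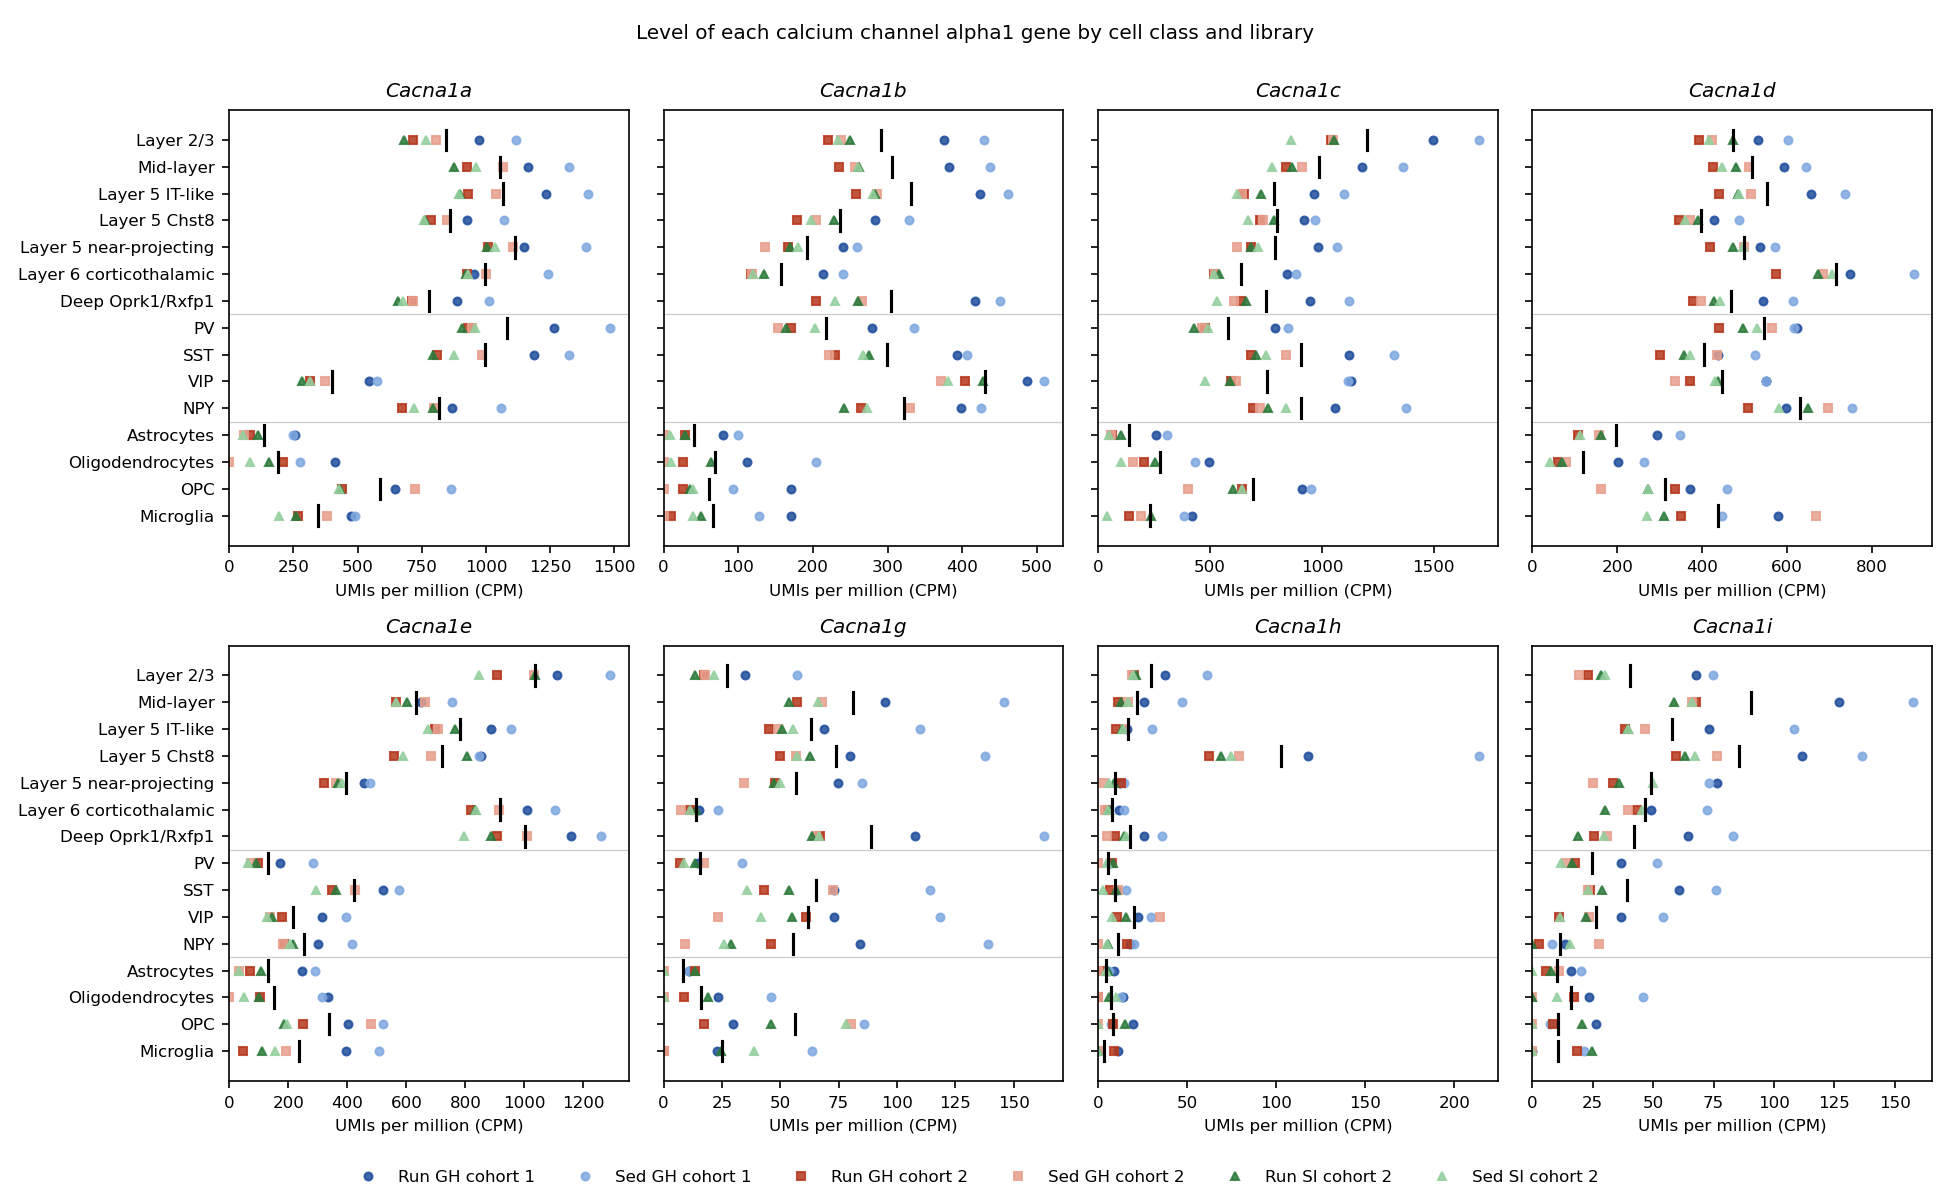
Level of each α1 subunit gene in CPM (horizontal axis, a panel per gene) by cell class (vertical axis). Each point is a library and each black bar the mean of 6 libraries. Circles are cohort 1, squares GH of cohort 2 and triangles SI of cohort 2. Mean Cacna1e is lower in every interneuron class than in 6 of the 7 pyramidal classes, the exception being layer 5 near-projecting neurons (395 CPM, against 422 in SST interneurons), Cacna1h stands out in the layer 5 neurons with Chst8, and Cacna1b is highest in VIP interneurons.

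The Cav2 subunits had a different order of classes each. Cacna1e was highest in layer 2/3 pyramidal neurons, with 1110, 1290, 908, 1034, 1037 and 846 CPM (1037 ± 156), and in the deep neurons with Oprk1 and Rxfp1 (1003 ± 178 CPM). These neighbours in the order were not separated beyond their spread (log2 ratio 0.05 ± 0.10 SD, higher in 5 of 6 libraries, exact two-sided sign-flip permutation p = 0.219, n = 6). It fell off from layer 6 corticothalamic neurons (919 ± 115) over layer 5 intratelencephalic-like neurons (781 ± 115), layer 5 neurons with Chst8 (722 ± 131) and mid-layer pyramidal neurons (634 ± 72.6) to SST interneurons (422 ± 109) and layer 5 near-projecting neurons (395 ± 59.8). Mid-layer neurons were above SST interneurons in 6 of 6 libraries, by 0.62 ± 0.23 (log2). NPY interneurons held 252 ± 91.9 CPM, VIP interneurons 217 ± 112 and PV interneurons 172, 284, 96.1, 72.8, 90.2 and 63.5 CPM (130 ± 84.7). The PV level was that of astrocytes (130 ± 111 CPM). With each nucleus thinned to 1000 UMIs, Cacna1e had a UMI in 11.8% ± 7.95 of PV nuclei and in 11.5% ± 11.1 of astrocytes, against 53.6% ± 4.80 of pyramidal nuclei. Unthinned, the shares were 31.9%, 27.4% and 87.5%, at library medians of 1329 to 5619.5 UMIs in PV interneurons, 955 to 4306 in astrocytes and 1696 to 6815 in pyramidal neurons. The Cacna1e share of PV interneurons was thus near that of astrocytes. After the background profile was subtracted, which also lowers the class totals, Cacna1e stood at 81.6 CPM in PV interneurons and 54.7 CPM in astrocytes. How much of this remaining level came from other cells was not tested.

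Cacna1b had another order. VIP interneurons led with 487, 509, 403, 372, 427 and 381 CPM (430 ± 56.6). They were above the next class, layer 5 intratelencephalic-like neurons (331 ± 86.7), in 6 of 6 libraries, by 0.41 ± 0.20 (log2). NPY interneurons, mid-layer pyramidal neurons, the deep neurons with Oprk1 and Rxfp1, SST interneurons and layer 2/3 neurons lay between 291 and 322 CPM, and none of the steps between them had the same sign in every library. Layer 6 corticothalamic neurons were the lowest neuron class, with 214, 240, 117, 118, 135 and 119 CPM. Cacna1a ranged only from 776 to 1115 CPM over the layer classes. Its top classes, layer 5 near-projecting neurons (1115 ± 146 CPM) and PV interneurons (1265, 1482, 930, 946, 907 and 958 CPM), were not separated beyond their spread (log2 ratio 0.06, exact sign-flip permutation p = 0.344, n = 6). VIP interneurons were the lowest neuron class for Cacna1a, with 544, 574, 314, 372, 284 and 313 CPM, below every library of PV interneurons.

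The L-type subunits were highest at opposite depths of the cortex. Cacna1c peaked in layer 2/3 pyramidal neurons, with 1495, 1702, 1040, 1049, 1054 and 862 CPM, above mid-layer neurons in 6 of 6 libraries by 0.27 ± 0.07 (log2). It was lowest among neuron classes in PV interneurons (789, 846, 477, 464, 427 and 491 CPM). Oligodendrocyte precursors, which are glia, held 693 ± 206 CPM of Cacna1c and astrocytes 139 ± 114. Cacna1d peaked in layer 6 corticothalamic neurons (748, 898, 575, 685, 672 and 707 CPM), followed by NPY interneurons (631 ± 87.5 CPM). That step was present in 5 of 6 libraries (exact sign-flip permutation p = 0.0625, n = 6). Cacna1d was the member with the smallest range over neuron classes, 1.80-fold between the highest and the lowest.

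Each T-type subunit was highest in other layer classes. Cacna1h was at 118, 214, 62.4, 79.0, 69.2 and 74.7 CPM in the layer 5 neurons with Chst8 (103 ± 57.7) and at 29.7 ± 16.9 CPM in layer 2/3 neurons, the next class. The step was 1.80 ± 0.17 (log2) and was seen in 6 of 6 libraries. With nuclei thinned to 1000 UMIs, 10.2% ± 5.42 of the Chst8 nuclei had a Cacna1h UMI, against 2.75% ± 1.29 of all pyramidal nuclei and 0.347% ± 0.317 of astrocytes; the unthinned shares were 38.9%, 12.4% and 1.30%. The lowest neuron class was PV interneurons, with 40 UMIs of Cacna1h over all libraries and none in SedGH of cohort 2. The fold from highest to lowest neuron class was 17.9, the largest of the 8 members. Cacna1g was highest in the deep neurons with Oprk1 and Rxfp1, with 108, 163, 66.9, 65.3, 63.4 and 66.7 CPM. Mid-layer neurons (80.9 ± 34.97 CPM) and the Chst8 neurons (74.0 ± 32.8) were next, and neither step had the same sign in every library. Layer 6 corticothalamic neurons (13.8 ± 5.41 CPM) and PV interneurons (15.7 ± 9.49) were the lowest neuron classes. Cacna1i was shared between mid-layer neurons (90.5 ± 41.5 CPM) and the Chst8 neurons (85.7 ± 31.2), which were not separated (log2 ratio 0.04, exact sign-flip permutation p = 0.594, n = 6). The Chst8 neurons were above layer 5 intratelencephalic-like neurons in 6 of 6 libraries, by 0.62 ± 0.15 (log2). NPY interneurons were the lowest neuron class, with 15 UMIs of Cacna1i in all. Over the 8 members, 112 steps between neighbouring classes were tested, and 19 reached 0.03125, the smallest p that 6 libraries allow. None passed after Benjamini-Hochberg adjustment (lowest adjusted value 0.184), which would have needed 70 such steps.

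As shares of all α1 subunit UMIs, which depend on gene length and are compared here only between classes, Cav3 genes took 3.81% ± 0.772 in pyramidal neurons, 7.74% in the Chst8 neurons and 1.69% ± 0.479 in PV interneurons. Cacna1a took 26.4% ± 1.54 of the α1 UMIs in pyramidal neurons and 41.8% ± 1.41 in PV interneurons, where Cacna1e took 4.66%. The sum of the 8 members was 3624 ± 714 CPM in pyramidal neurons, 2601 ± 654 in PV, 3138 in SST, 2354 in VIP and 3008 in NPY interneurons, and 664 CPM in astrocytes.

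Do interneurons differ from pyramidal neurons in the channels they express? The counts of each class were summed per library and tested with edgeR's quasi-likelihood test, with the library as a block, over all genes. In PV interneurons, fast-spiking cells that inhibit the cell bodies of pyramidal neurons, 6 of the 8 members were lower than in pyramidal neurons and 0 were higher, where 46.6% of all 15119 genes tested differed, 24.3% lower and 22.3% higher. Cacna1e differed most (log2 fold −2.90 ± 0.14 SE, adjusted p = 7.68e-18), followed by Cacna1h (−2.31 ± 0.20), Cacna1g (−1.97 ± 0.14), Cacna1i (−1.37 ± 0.12), Cacna1c (−0.83 ± 0.08) and Cacna1b (−0.49 ± 0.08). Each of the 6 was lower in 6 of 6 libraries. Cacna1a (0.01 ± 0.07, adjusted p = 0.926) and Cacna1d (−0.10 ± 0.07, adjusted p = 0.297) did not pass, though Cacna1d did as lower without the filter on low counts (−0.19, adjusted p = 0.0294). Scaled by class totals without TMM factors, Cacna1a was higher in PV interneurons in 6 of 6 libraries (log2 ratios 0.03 to 0.30) and Cacna1d in 5 of 6 (−0.13 to 0.24), so the direction of Cacna1d turned with the scaling. The median over the members was −1.10, against 0.013 over all genes. Scaled by library totals in place of TMM factors, Cacna1a passed as higher (0.18, adjusted p = 0.0187), the median over all genes moved from 0.013 to 0.17, and the genes called higher went from 47.9% to 62.3% of those called.

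In SST interneurons, which inhibit dendrites, 4 of 8 members were lower and 0 higher (background 37.0% of 15415 genes, 19.4% lower and 17.6% higher). These were Cacna1h (−1.74 ± 0.18), Cacna1e (−1.12 ± 0.07, adjusted p = 6.73e-17), Cacna1i (−0.69 ± 0.10) and Cacna1d (−0.51 ± 0.07), and the median over the members was −0.33 against 0.029 over all genes. By class totals without TMM factors, Cacna1b was higher in 5 of 6 libraries (log2 ratios −0.05 to 0.25). In the main fit Cacna1a, Cacna1b and Cacna1g had log2 folds of −0.07, 0.02 and 0.15 that did not pass. Cacna1c did not pass either (−0.15, adjusted p = 0.0741), but did with DESeq2 (−0.16, adjusted p = 0.0149), in thinned nuclei (−0.23, adjusted p = 0.0419), after background subtraction (−0.20, adjusted p = 0.0107), in cohort 2 alone (−0.20, adjusted p = 0.0149) and without SedGH of cohort 1 (−0.20, adjusted p = 0.0341). Without the filter on low counts Cacna1c (−0.25, adjusted p = 0.000957) and Cacna1a (−0.17, adjusted p = 0.0397) passed as lower. With library totals Cacna1g passed as higher (0.27, adjusted p = 0.0236), the median over all genes was 0.14, and the genes called higher went from 47.6% to 61.1%.

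VIP interneurons, which mainly inhibit other interneurons, were the interneuron class where, with TMM scaling, a member was above pyramidal neurons. Cacna1b was higher by 0.51 ± 0.10 (log2, adjusted p = 2.45e-06), in 6 of 6 libraries, and 6 members were lower (background 30.4% of 15514 genes, 12.8% higher and 17.6% lower). The lower ones were Cacna1e (−2.10 ± 0.11), Cacna1a (−1.44 ± 0.10), Cacna1i (−1.32 ± 0.16), Cacna1h (−0.85 ± 0.20), Cacna1c (−0.48 ± 0.10) and Cacna1d (−0.38 ± 0.10), and Cacna1g stood at 0.16 and did not pass. The median over the members was −0.66 against −0.029 over all genes. When classes were rebuilt from log-normalized values, Cacna1b was at 358 CPM in VIP interneurons and no longer passed (0.20, adjusted p = 0.289). Cacna1h was lost in thinned nuclei (−0.61, adjusted p = 0.261) and in cohort 2 alone (−0.83, adjusted p = 0.0613), and Cacna1c in cohort 1 alone (−0.25, adjusted p = 0.0796). With library totals Cacna1d was lost (−0.20, adjusted p = 0.0801), Cacna1g passed as higher (0.31, adjusted p = 0.0484), the median over all genes was 0.12, and the genes called higher went from 42.2% to 57.5%.

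In NPY interneurons 5 of 8 members were lower and 0 higher (background 27.9% of 15370 genes, 17.7% lower and 10.2% higher). Cacna1i (−3.07 ± 0.26, adjusted p = 1.92e-29) and Cacna1e (−2.001 ± 0.105) differed most, then Cacna1h (−1.45 ± 0.28), Cacna1a (−0.49 ± 0.09) and Cacna1c (−0.28 ± 0.09, adjusted p = 0.00889), with a median over the members of −0.38 against −0.077 over all genes. By class totals without TMM factors, Cacna1b and Cacna1d were higher in 6 of 6 libraries (log2 ratios 0.05 to 0.54 and 0.09 to 0.55), though neither passed in the main fit. Cacna1c was lower in CPM in 4 of 6 libraries. It was lost with DESeq2 (−0.18, adjusted p = 0.143), in cohort 1 alone (−0.29, adjusted p = 0.0671), with at least 1000 genes per nucleus (−0.25, adjusted p = 0.0525) and without RunGH (−0.24, adjusted p = 0.0864), SedGH (−0.20, adjusted p = 0.126) or RunSI (−0.26, adjusted p = 0.0516) of cohort 2. With library totals Cacna1a (−0.21, adjusted p = 0.0573) and Cacna1c (−0.01, adjusted p = 0.934) were lost, Cacna1d passed as higher (0.27, adjusted p = 0.0135), the median over all genes was 0.18, and the genes called higher went from 36.5% to 60.8%. In the VIP and NPY comparisons the fit took nearly the same spread for all genes, so the sizes of these p-values are less informative than the folds.

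**Figure D2:**
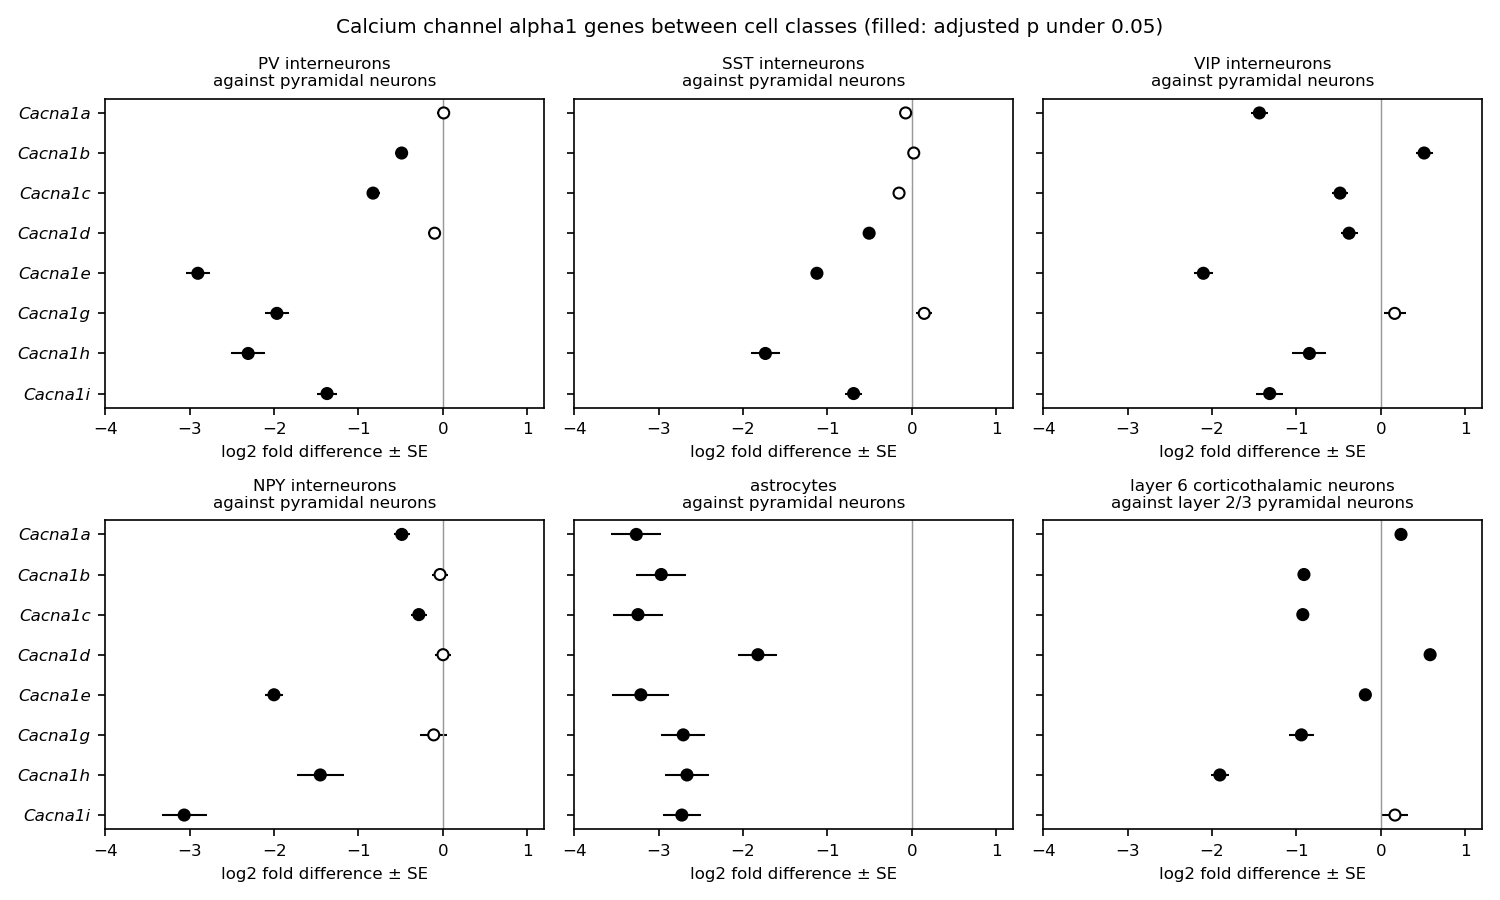
Log2 fold change with its standard error (horizontal axis) of the 8 members in 6 comparisons of classes; filled points have an adjusted p under 0.05. Cacna1e is lower than in pyramidal neurons in all 4 interneuron classes, and Cacna1b is higher in VIP interneurons and not in the other 3 in the fit plotted.

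Astrocytes, which do not fire action potentials, were lower than pyramidal neurons for 8 of 8 members (background 52.3% of 15926 genes, 28.1% lower and 24.2% higher). The log2 folds ran from −1.82 ± 0.23 for Cacna1d (adjusted p = 1.02e-06) to −3.27 ± 0.29 for Cacna1a (adjusted p = 8.20e-09), with a median of −2.85 against −0.043 over all genes. With library totals the median over all genes was 0.23 and the genes called higher went from 46.2% to 60.8%, and all 8 members stayed lower. In astrocytes, Cacna1d stood at 197 CPM before and 181 CPM after the background profile was subtracted, Cacna1e at 130 and 54.7 and Cacna1a at 134 and 70.7. Subtraction also lowers the class total that CPM is scaled by, so these pairs do not give the part of the UMIs kept.

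Between the layers, 7 of 8 members differed: 5 were lower and 2 higher in layer 6 corticothalamic than in layer 2/3 neurons (background 42.1% of 14297 genes, 23.4% lower and 18.7% higher). The lower ones were Cacna1h (−1.91 ± 0.11, adjusted p = 3.42e-11), Cacna1g (−0.94 ± 0.15), Cacna1c (−0.92 ± 0.06), Cacna1b (−0.91 ± 0.06) and Cacna1e (−0.18 ± 0.06, adjusted p = 0.0218). Cacna1d was higher (0.59 ± 0.06, adjusted p = 4.46e-07), in 6 of 6 libraries, and Cacna1a was higher by 0.24 ± 0.07 (adjusted p = 0.0141), in 5 of 6. The L-type genes thus moved in opposite directions between these layers. Cacna1a was lost in cohort 1 alone (0.06, adjusted p = 0.489) and without RunGH, SedGH or RunSI of cohort 2 (adjusted p = 0.0641, 0.0540 and 0.0760). Cacna1e was lost without SedGH of cohort 1, SedGH of cohort 2 or RunSI (adjusted p = 0.0801, 0.0505 and 0.0883) and with log-normalized clustering (−0.12, adjusted p = 0.116). Cacna1i stood at 0.17 ± 0.15 and did not pass, but it did in cohort 2 alone (0.60, adjusted p = 2.62e-05) and without RunGH of cohort 1 (0.41, adjusted p = 0.0110).

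Does the maternal environment change α1 subunit levels? In pyramidal neurons, 0 of 8 members differed between Run and Sed (0.0% of 17929 genes passed edgeR's quasi-likelihood test with the pair of libraries as a block). The layers took unequal shares of this pooled class: layer 6 corticothalamic neurons, which differed from layer 2/3 neurons in 7 of 8 members, were 10.3% of it in RunGH and 24.0% in SedGH of cohort 1, 17.9% and 11.8% in the GH pair and 15.4% and 14.0% in the SI pair of cohort 2. In each of the 7 layer classes alone, a split added after the data were seen, 0 of 8 members passed as well (0.00697% to 0.129% of all genes). All 8 had log2 folds below 0, from −0.03 ± 0.09 for Cacna1c to −0.37 ± 0.13 for Cacna1h, with a median of −0.17 against −0.0038 over all genes. At an unadjusted p under 0.05 stood 3 members, the T-type genes Cacna1g (−0.32 ± 0.09, adjusted p = 0.661), Cacna1h (adjusted p = 0.677) and Cacna1i (−0.23 ± 0.08, adjusted p = 0.677), and so did 1320 of all genes. DESeq2 called 0 members and 40 genes. Cacna1a (−0.18 ± 0.08, adjusted p = 0.677) passed when either library of cohort 1 was left out (−0.19 both times, adjusted p = 0.0428 without RunGH and 0.0362 without SedGH), where the remaining library of cohort 1 no longer entered the contrast and the count over all genes rose to 2774 and 2912.

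Within pairs, Cacna1a in pyramidal neurons was lower in Run in all 3, by log2 ratios of −0.21 in GH of cohort 1, −0.14 in GH of cohort 2 and −0.06 in SI. Over the 11 neuron classes, which come from the same pools and are not replicates, it was lower in Run in 11, 11 and 8 of them. Cacna1h had ratios of −0.63, −0.36 and 0.02, and Cacna1e of −0.18, −0.16 and 0.19. Cacna1c had −0.08, −0.04 and 0.18, with Run below Sed in both GH pairs and above in SI. Cacna1g (−0.50, −0.19 and −0.14) and Cacna1i (−0.24, −0.10 and −0.19) were, like Cacna1a, lower in Run in every pair, the smallest of these differences lying within the 95% exact binomial interval of its counts (−0.26 to 0.05 for Cacna1i in GH of cohort 2). These intervals cover counting error only.

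**Figure D3:**
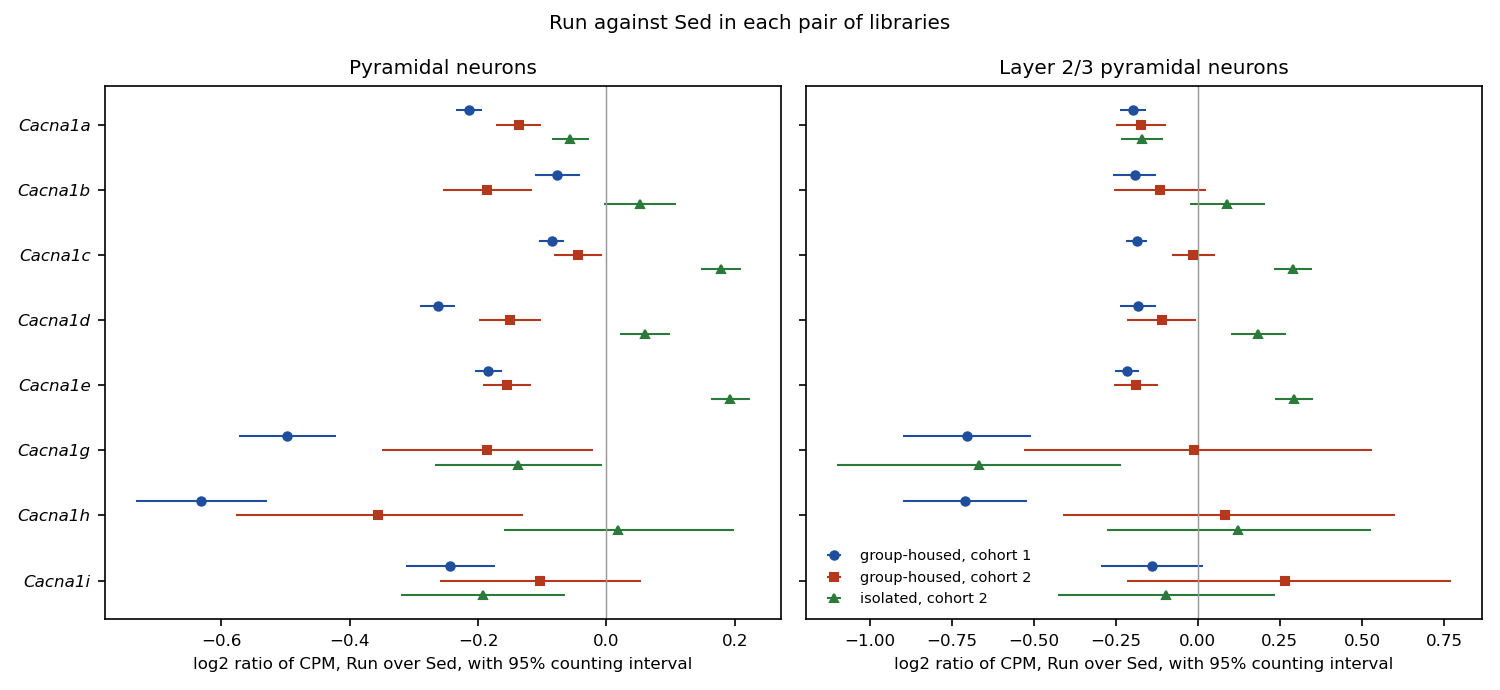
Log2 ratio of Run to Sed CPM (horizontal axis) for each member in pyramidal and layer 2/3 neurons. There is a point for each of the 3 pairs of libraries with its 95% interval from counts. The GH pairs lie mostly below 0 and several SI pairs above it.

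The other classes gave no member either. In layer 2/3 neurons 0 of 8 members passed (0.00697% of 14340 genes did), with 2 at an unadjusted p under 0.05, Cacna1g (−0.55 ± 0.16, adjusted p = 0.575) and Cacna1a (−0.23 ± 0.10, adjusted p = 0.696). In layer 6 corticothalamic neurons 0 of 8 passed (0.0152% of 13123 genes), with 2 at an unadjusted p under 0.05, Cacna1i (−0.42 ± 0.16, adjusted p = 0.766) and Cacna1d (−0.24 ± 0.10, adjusted p = 0.767). In PV interneurons 0 of the 7 members tested passed (0.098% of 10206 genes, 0.0784% as higher and 0.0196% as lower) and none stood at an unadjusted p under 0.05, Cacna1h being too low to test. In SST interneurons 0 of 8 passed (0.0497% of 10052 genes), again with none at an unadjusted p under 0.05. Over these 4 classes 1010, 808, 586 and 599 genes stood at an unadjusted p under 0.05, and DESeq2 called 0 members in each.

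Social isolation was tested in the same fits, by RunSI and SedSI against the RunGH and SedGH libraries of cohort 2, which the maternal comparison also uses. In pyramidal neurons 0 of 8 members passed (0.0% of 17929 genes, with 165 at an unadjusted p under 0.05), and log2 folds ran from −0.08 ± 0.10 for Cacna1a to 0.12 ± 0.16 for Cacna1h. None passed in layer 2/3 neurons (0.0% of 14340 genes), layer 6 corticothalamic neurons (0.0% of 13123), PV (0.0% of 10206) or SST interneurons (0.00995% of 10052), where 149, 262, 163 and 234 genes stood at an unadjusted p under 0.05. The 1 member at that level was Cacna1i in layer 2/3 neurons (0.46 ± 0.17, adjusted p = 1.0). DESeq2 called 0 members in the 5 classes. Over the 11 neuron classes, which come from the same pools and are not replicates, Cacna1a was lower in isolation in 10 classes in the Run pair (median log2 ratio −0.04) and in 10 in the Sed pair (median −0.15). Cacna1d was higher in RunSI than in RunGH in 11 of 11 neuron classes (median log2 ratio 0.18), and in SedSI than in SedGH in 3 of 11 (median −0.04). Whether the Run and Sed difference depended on housing was tested as an interaction. In pyramidal neurons 0 of 8 members passed (0.0% of 18678 genes, 52 at an unadjusted p under 0.05), and in PV interneurons 0 of 7 (0.0181% of 11054 genes, 328 at that level), where Cacna1e came nearest (0.81 ± 0.40, adjusted p = 1.0). This test had 1 residual degree of freedom, and its standard errors for the members in pyramidal neurons ran from 0.22 to 0.27.

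The cohorts differed in every member. The GH libraries of cohort 2 were below those of cohort 1 for 8 of 8 members in pyramidal neurons (background 38.3% of 17929 genes, 18.0% lower and 20.3% higher). The cohorts were clustered separately, and nuclei of clusters without a layer name made up 12.5% (RunGH) and 7.71% (SedGH) of the pooled class in cohort 1 but 0.469% and 0.245% in the GH libraries of cohort 2. In comparisons added after the data were seen, with the 7 named layer classes only, 8 of 8 members were lower too (6796 of all 17886 genes differed, median over the members −0.85). With each layer class alone, every member's fold was below 0, and 8 of 8 passed in layer 2/3, mid-layer, layer 5 intratelencephalic-like and deep Oprk1 neurons (36.0% to 40.8% of all genes), 7 in layer 6 corticothalamic neurons (30.8%), 5 in near-projecting neurons (19.1%) and 4 in the neurons with Chst8 (21.8%). Cacna1a passed in none of those last 3 classes (adjusted p from 0.0648 to 0.0973). In the neurons with Chst8, Cacna1c, Cacna1d and Cacna1e did not pass either (adjusted p = 0.0506, 0.0562 and 0.0581). Cacna1d and Cacna1h did not pass in near-projecting neurons (adjusted p = 0.0828 and 0.477). Log2 folds ran from −0.49 ± 0.10 for Cacna1a (adjusted p = 0.0106) over −0.80 ± 0.11 for Cacna1c and −0.93 ± 0.11 for Cacna1b to −1.22 ± 0.10 for Cacna1i (adjusted p = 0.000968), with a median of −0.87 against −0.0030 over all genes. Of genes at least 100 kb long, as 6 of the members are, 44.3% were lower and 2.26% higher. The part of gene length, and that of the background droplets, which held a median of 1035 and 1164 UMIs in cohort 1 and 81 to 301 in cohort 2, was not tested. Cacna1a and Cacna1e were lost when any library of cohort 2 was left out (adjusted p from 0.0582 to 0.137 for Cacna1a and from 0.0573 to 0.212 for Cacna1e), and Cacna1d without RunGH of cohort 2 (adjusted p = 0.0903). With library totals Cacna1e was lost (−0.34, adjusted p = 0.0609), the median over all genes was 0.16, and the genes called higher went from 53.1% to 69.9%.

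In PV interneurons 6 of the 7 members tested were lower in cohort 2 and 0 higher (background 26.9% of 10206 genes, 12.1% lower and 14.8% higher). Cacna1i (−1.47), Cacna1e (−1.42 ± 0.24), Cacna1b (−0.98), Cacna1c (−0.89), Cacna1a (−0.65) and Cacna1d (−0.44, adjusted p = 0.0489) passed, and Cacna1g (−1.21 ± 0.51, adjusted p = 0.0843) did not. Cacna1d was lost without any 1 of 5 libraries (adjusted p from 0.0581 to 0.638), and with library totals (−0.33, adjusted p = 0.0921), where the genes called higher went from 55.1% to 66.8% and the median over all genes was 0.13. Cacna1a was lost without RunGH or SedGH of cohort 2 (adjusted p = 0.0672 and 0.0660), Cacna1i without RunGH of cohort 2 (adjusted p = 0.0667), and Cacna1g passed without RunGH of cohort 1 (−1.81, adjusted p = 0.0284). Cacna1d was also lost with at least 1000 genes per nucleus (−0.46, adjusted p = 0.0589) and with doublets left out (−0.41, adjusted p = 0.0702). DESeq2 lost Cacna1d (adjusted p = 0.233) and Cacna1i (adjusted p = 0.117), thinning lost Cacna1a (−0.45, adjusted p = 0.0695) and Cacna1d (−0.40, adjusted p = 0.165) and left Cacna1i too low to test, and background subtraction lost Cacna1d (−0.42, adjusted p = 0.105) and Cacna1e (−0.58, adjusted p = 0.240).

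Partner counts below are read against the background shares given for the same comparisons above. The genes that work with the α1 subunits were followed with a list of 26 partners: the other α1 genes, β and α2δ subunits, release-site proteins, RGK proteins, calmodulins and kinase, calcium-activated potassium channels and the ryanodine receptor Ryr2. In PV against pyramidal neurons 2 of 23 tested were higher and 15 lower. The α2δ subunits changed places: Cacna2d2 was at 314 ± 31.9 CPM in PV and 7.97 ± 1.38 CPM in pyramidal neurons (log2 fold 5.14 ± 0.10), and Cacna2d1 at 86.2 against 808 CPM (−3.47 ± 0.23). Kcnn3, an SK potassium channel opened by calcium, was lower (−3.52 ± 0.18), and Gem, an RGK protein that inhibits calcium channels, higher (4.08 ± 0.50) at a low level of 5.4 CPM. SST interneurons had 2 of 22 higher and 14 lower, with the same swap (Cacna2d2 4.42 ± 0.10, Cacna2d1 −3.13 ± 0.17). There Kcnn3 (−1.97 ± 0.16) and Camk2a (−1.63 ± 0.08), the calcium-dependent kinase of excitatory synapses, were lower. VIP interneurons had 4 of 24 higher and 10 lower and NPY interneurons 5 of 22 higher and 10 lower. In both, the BK channel gene Kcnma1 was lower (−1.87 ± 0.10 and −1.80 ± 0.10) and the SK channel gene Kcnn2 higher (1.399 ± 0.099 and 1.64 ± 0.09). In VIP interneurons Rimbp2, which links calcium channels to release sites, and Cacna2d1 were also lower (−1.68 ± 0.11 and −1.50 ± 0.11), and in NPY interneurons Camk2a and Ryr2 (−1.46 ± 0.10 and −1.41 ± 0.10).

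In astrocytes 4 of 23 partners were higher and 13 lower, led by Gem (4.97 ± 0.47), Ryr2 (−3.51 ± 0.40), Rimbp2 (−3.37 ± 0.33) and the release-site gene Rims1 (−3.36 ± 0.46). Layer 6 corticothalamic against layer 2/3 neurons gave 7 of 22 higher and 10 lower. The α2δ gene Cacna2d3 was at 75.6 CPM in layer 6 and 569 CPM in layer 2/3 (−3.02 ± 0.15). The other leading partners were Kcnn1 (1.59 ± 0.25), Cacna2d4 (−1.47 ± 0.37) and the β subunit gene Cacnb2 (−1.44 ± 0.06). Between cohorts, 2 of 26 partners were higher and 8 lower in pyramidal neurons, a share near the 38.3% of all genes, with the largest changes in Kcnn3 (−1.22 ± 0.20), the vesicle-priming gene Unc13a (−1.02 ± 0.10), Rimbp2 (−0.90 ± 0.10) and the calmodulin gene Calm2 (0.79 ± 0.11). In PV interneurons 2 of 18 were higher and 9 lower, among them Cacna2d1 (−2.55 ± 0.24), Cacna2d3 (−1.78 ± 0.22) and Ryr2 (−1.25 ± 0.17). In the maternal, isolation and interaction comparisons 0 partners passed.

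**Figure D4:**
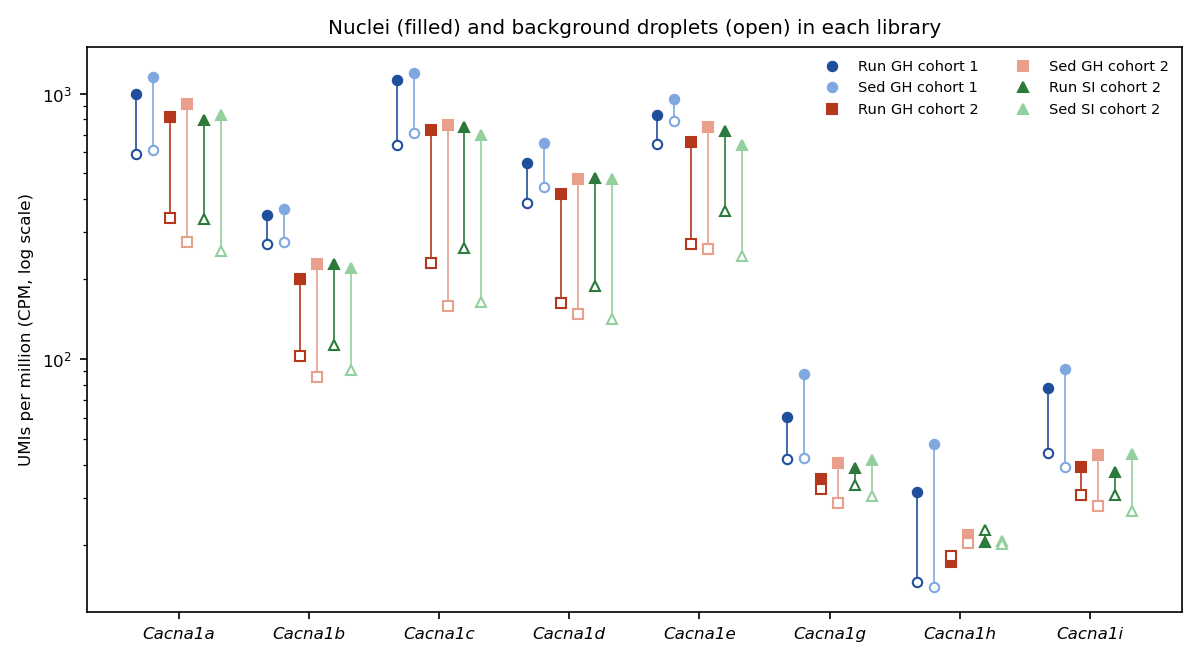
Level of each member in CPM (vertical log axis) in nuclei (filled) and in droplets below the library's cut for nuclei (open), per library. Nuclei lie above the droplets for every member and library except Cacna1h, which is lower in nuclei in RunGH of cohort 2 and RunSI.

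The genes with the most similar pattern over classes were searched among 7083 genes with a mean of at least 20 CPM, by Pearson r over 90 points (15 classes in 6 libraries, which share library depth and background), after each library's mean was removed. Among the most similar were Fam155a (r = 0.93) and Lrrfip1 (0.92) for Cacna1a, Bicdl1 and Cacng2 (both 0.91) and Slc35f4 (0.90) for Cacna1b, and Erc2 (0.91), Scn2a (0.90) and Dlg2 (0.89) for Cacna1c. For Cacna1e these were Pcsk2 (0.89), Dlgap3 and Ldb2 (both 0.87), and for Cacna1d Prkce (0.82) and Fgf14 (0.81). The T-type genes had looser companions: Scn3a (0.76), Rasgrf1 (0.73) and Kcnb2 (0.72) for Cacna1g, Itpka (0.76), Gm11613 (0.68) and Ltk (0.67) for Cacna1h, and Slc6a7 (0.80), Tmem63c and Nsun2 (both 0.77) for Cacna1i. Among the members themselves r ran from 0.26 (Cacna1d and Cacna1h) to 0.79 (Cacna1a and Cacna1e).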

How the data were processed

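Single-nucleus RNA was sequenced from 6 libraries of mouse prelimbic cortex (10x 3′ chemistry). Per the labels, the authors mapped reads to mm10 with Cell Ranger 6.0.0; the headers of the deposited matrices name Cell Ranger 4. The deposited values are raw UMI counts for all barcodes, introns included. Nuclei were taken as barcodes above a cut set from an expected number of nuclei per library. They had 500 to 4000 genes and at most 1% mitochondrial UMIs. The numbers kept differ from those the study reports. Classes were rebuilt in each cohort separately with scanpy 1.11.5 (3000 variable genes without the members and partners, 35 components, 20 neighbours, Leiden resolution 0.6) and named from at least 3 markers; the naming rules were set after marker scores were seen. Doublets (6% expected) were kept in and left out only as an alternative. Levels are CPM of the summed counts. Shares of nuclei were also given after thinning to 1000 UMIs, shallower nuclei left out.

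Summed counts were tested with edgeR 4.0.16 (TMM factors, filterByExpr, glmQLFit, glmQLFTest, Benjamini-Hochberg threshold 0.05 over all genes tested). Run and Sed were compared with the cohort and housing as a block (2 residual degrees of freedom), the interaction with 1, and classes with the library as a block. The pairing comes from the labelled cohort: deviations of RunGH and SedGH libraries of the same cohort in pyramidal neurons correlated with r = 0.827 over 6324 genes. Neighbouring classes were compared by exact sign flips over 6 libraries on log2 CPM, with 0.5 added to each UMI count before scaling. The test scripts were checked on simulated counts with known changes. In these, unchanged genes made up a larger share of the calls than the threshold allows in the maternal tests of pyramidal and layer 6 corticothalamic neurons, the isolation tests of pyramidal and layer 2/3 neurons and PV interneurons, both cohort tests and the class comparisons other than VIP and NPY. Both interaction tests missed most changed genes, so that their lack of calls says little. Genes changed by 1 log2 unit were also mostly missed in the maternal tests of PV and SST interneurons. The same held for the isolation tests of pyramidal neurons, layer 6 corticothalamic neurons, PV interneurons and SST interneurons. A lack of calls in these tests says little about changes of that size or smaller. Named genes were all 8 members, at most 4 partners past the test per comparison by size of change, the 3 genes most like each member, and class markers; a few genes that this rule names are not reported here. The members and lists were chosen with earlier results of these data known. Pools are the replicates, so p-values measure the spread between pools, which may be technical. Alternatives were DESeq2 1.42.0, no low-count filter, a 1000-gene minimum, no upper limit, doublets removed, thinning, background subtraction, log-normalized clustering, fits without the block, and each library left out; scaling by library totals and single-cohort fits were chosen after seeing the data.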

Additional observations from a re-analysis of the deposited data

Results flagged for a closer look

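Droplets with at least 30 UMIs but under 0.6 times their library's minimum for nuclei held member UMIs in all 6 libraries. They entered the tests only where their profile was subtracted as an alternative. The sums were 135252 for Cacna1a, 58962 for Cacna1b, 144303 for Cacna1c, 91243 for Cacna1d, 158631 for Cacna1e, 10086 for Cacna1g, 4006 for Cacna1h and 9756 for Cacna1i. In CPM, nuclei were above these droplets by 1.69 to 3.30 times for Cacna1a, 1.69 to 4.81 for Cacna1c and 1.42 to 3.35 for Cacna1d. The lowest ratios were smaller for Cacna1b (1.28 to 2.66), Cacna1i (1.22 to 2.35), Cacna1e (1.21 to 2.88) and Cacna1g (1.09 to 2.07). Droplets held 28.7 to 42.3 CPM of Cacna1g, against means of 13.8 CPM in layer 6 corticothalamic neurons and 15.7 CPM in PV interneurons. For Cacna1h the ratio of nuclei to droplets ran from 0.903 to 3.46 and was below 1 in RunGH (0.949) and RunSI (0.903) of cohort 2.

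Some differences pointed one way in every library or pair of one group and the other way in the other; none of these contrasts was tested. In layer 6 corticothalamic against layer 2/3 neurons, Cacna1i was lower in both libraries of cohort 1 and higher in the 4 of cohort 2, the group means lying 0.914 (log2) apart. Run was below Sed in both GH pairs and above it in the SI pair for several members. These cases, like that of Cacna1i, were picked because their signs split between the groups. The share of all genes with such splits was not counted, so the splits cannot be read as particular to the members. In layer 2/3 neurons the GH and SI ratios lay 0.244 (Cacna1b), 0.390 (Cacna1c), 0.331 (Cacna1d) and 0.495 (Cacna1e) log2 units apart. In layer 6 corticothalamic neurons the gaps were 0.267 for Cacna1b and 0.114 for Cacna1c. In SST interneurons they were 0.516 for Cacna1e, 1.29 for Cacna1g and 2.67 for Cacna1h; the last rests on 11 UMIs in RunSI and 1 in SedSI, a log2 ratio of 2.00 with a 95% exact binomial interval from −0.78 to 7.43. The SI pair is a single pair of pools, so its replicate spread is unknown.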

How the results depend on the processing

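Of the member folds under the alternatives, 2501 kept their direction and their side of the threshold, 171 that had not passed changed sign, 17 passed newly, 69 no longer passed and 0 that had passed reversed. Apart from the replicate block and single libraries left out, the values that ended or made a call stand beside the results above. The calls lost without the replicate block were Cacna1b in PV (adjusted p = 0.290), Cacna1d and Cacna1i in SST (0.101 and 0.320), Cacna1a and Cacna1c in NPY interneurons (0.105 and 0.666), Cacna1a, Cacna1e and Cacna1g between the layers (0.526, 0.590 and 0.125) and Cacna1b, Cacna1c, Cacna1d, Cacna1h and Cacna1i in VIP interneurons (0.0633 to 0.510). Without this block (classes compared without the library term), 2 members passed in SST, 2 in VIP and 3 in NPY interneurons and 4 between the layers, against 4, 7, 5 and 7 with it; in PV interneurons 5 passed and in astrocytes 8, and in the maternal and isolation comparisons 0 passed either way. In thinned nuclei 3 members passed between cohorts in PV interneurons, against 6; Cacna1a and Cacna1d no longer passed and Cacna1i was not tested.

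With each library left out, the members that passed numbered 0 to 1 for Run against Sed in pyramidal neurons, and 0 in its other 4 classes and for isolation. They numbered 5 to 8 between cohorts in pyramidal neurons and 3 to 6 in PV interneurons, 6 in PV against pyramidal neurons, 4 to 5 in SST, 7 in VIP, 4 to 5 in NPY, 8 in astrocytes and 5 to 8 between the layers. The interaction leaves no residual degree of freedom without a library and was not refitted. Over all genes, Run against Sed in pyramidal neurons gave 0 genes and up to 2635 in cohort 2 alone or 2912 without SedGH of cohort 1, and in layer 2/3 neurons 1 and up to 1189. In layer 6 corticothalamic neurons, PV and SST interneurons it gave 2, 10 and 5 genes and up to 605, 130 and 90 in cohort 2 alone. Isolation gave at most 55 genes. Cohorts gave 6860 genes in pyramidal neurons (2937 to 9229 with a library left out, and 1778 in near-projecting and 2724 in Chst8 neurons alone, where 5 and 4 members passed) and 2745 in PV interneurons (907 with DESeq2 to 3165). Class comparisons fell from 7048, 5702, 4718, 8326 and 6015 genes (PV, SST, VIP, astrocytes, layers) to 3832, 2786, 2440, 5894 and 2498 without the block, and NPY from 4292 to 2278 in cohort 1 alone. The cause was not tested.

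Levels moved by less than 1 SD in 1638 cases and by more in 10, of which 8 came with log-normalized clustering, 7 of them in microglia. The other was Cacna1b in VIP interneurons (358 CPM). Leaving out 1 library cannot move a mean by 1 SD, so those cases could only count as unmoved. The SD over libraries also holds the difference between cohorts, so a move below it can still be large. SedGH of cohort 2 had the fewest UMIs per nucleus.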
